A study of Mus musculus with 3 samples.

Results

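The Myc, Mxd and Max network was described in whole lungs of mice with and without deletion of Lin28a and Lin28b. The genes were Myc, Mycn, Mycl, Max, Mxd1, Mxd3, Mxd4, Mxi1, Mnt and Mlx, and their rows were found by matching RefSeq transcript identifiers to these symbols. Of the 10 genes, 9 had a row, out of 10761 named genes in the table. Mxd3 had none, so its level was not analysed. The network was picked out because Mxd4 differed between the libraries, so the members' differences between genotypes are given as a description, and no support is drawn from any test of them.

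The series concerns Lin28a and Lin28b, RNA-binding proteins, in branching of the lung and differentiation of its epithelium. There were 2 double-knockout libraries (DKO 1 and DKO 2, labelled Lin28a and Lin28b KO) and 1 wild-type library (WT), all from whole lung of a C57BL/6J/mixed background. In the knockout, loxP-flanked exon 2 was recombined after tamoxifen by NKX2.1creERT, a Cre recombinase driven from the Nkx2-1 gene of lung epithelium. The labels give no age or sex, do not say whether WT carried the Cre or received tamoxifen, and leave unsaid whether DKO 1 and DKO 2 are different mice. The spread between the DKO libraries may therefore be partly technical, and the single WT library has no replicate.

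The proteins of this network share a basic helix-loop-helix leucine zipper, with which they bind DNA in pairs. MAX is the common partner. MYC, MYCN and MYCL pair with MAX on the E-box, the letters CACGTG, and recruit coactivators of genes for growth and ribosome building. The MXD proteins (MXD1, MXI1, MXD3 and MXD4) and MNT also pair with MAX on E-boxes, and recruit the Sin3 corepressor with its histone deacetylases. MLX, a relative of MAX, pairs with MNT and with some MXD proteins. In many tissues MYC genes are used by dividing cells and MXD genes by cells that leave the cycle, and Mycn is needed for growth of the embryonic lung epithelium.

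Values were RPKM, which divides reads by the transcript's length and the library's size, and differences are on the log2(RPKM + 1) scale. The depth, estimated from the lowest values, was about 30700000 reads in DKO 1, 34200000 in DKO 2 and 48700000 in WT. Lin28b, a deleted gene, had 0.187 RPKM in DKO 1 and 0.590 in DKO 2, against 0.449 in WT, or about 31, 109 and 118 reads. Only DKO 1 was below WT, so for the library labelled DKO 2 this gene goes against the label, and DKO 1 and DKO 2 name the libraries so labelled throughout. The deletion is of exon 2 in epithelium, and reads of other exons or other cells still count. Lin28a was not analysed here.

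Promoters of the network's genes are shown first, since E-boxes in them are sequences to which these proteins can bind. RefSeq promoters of GRCm38.p6, each with 250 bases before and 50 after the gene's start, were used. They were at hand for 9 of the 10 genes (all but Myc), in 11 promoters. The letters CACGTG were present in 4 of these 11, those of Mxd4, Mnt, Mlx and Max, and in 7.15% of all 32851 promoters of the same length. Mxd4, the gene that differed, has its E-box at −219 from the start (chr5:34187661-34187960, minus strand). Mnt has one at −123 (chr11:74830674-74830973, plus strand), Mlx at −40 and Max at −3. The promoter of Mycn (chr12:12941787-12942086, minus strand) holds no E-box. It holds 3 matches, of which 2 overlap, to an E2F motif searched on both strands as TTTGGCGC, TTTCCCGC, TTTCGCGC and TTTGCCGC, which 2.26% of all promoters hold. These 3 promoters are printed 5′ to 3′ with the motif in capitals, the E-box for Mxd4 and Mnt and the E2F motif for Mycn.
Mxd4: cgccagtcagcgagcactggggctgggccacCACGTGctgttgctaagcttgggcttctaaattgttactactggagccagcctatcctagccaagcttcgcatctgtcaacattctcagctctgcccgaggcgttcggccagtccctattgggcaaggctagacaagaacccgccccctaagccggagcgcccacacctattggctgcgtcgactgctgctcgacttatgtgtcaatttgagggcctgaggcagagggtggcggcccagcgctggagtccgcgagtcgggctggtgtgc
Mnt: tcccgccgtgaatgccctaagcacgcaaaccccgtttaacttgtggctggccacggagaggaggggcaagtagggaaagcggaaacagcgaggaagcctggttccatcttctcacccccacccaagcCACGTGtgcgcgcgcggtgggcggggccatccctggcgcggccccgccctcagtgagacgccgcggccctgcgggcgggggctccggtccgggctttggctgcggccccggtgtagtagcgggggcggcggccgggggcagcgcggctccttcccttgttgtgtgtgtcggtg
Mycn: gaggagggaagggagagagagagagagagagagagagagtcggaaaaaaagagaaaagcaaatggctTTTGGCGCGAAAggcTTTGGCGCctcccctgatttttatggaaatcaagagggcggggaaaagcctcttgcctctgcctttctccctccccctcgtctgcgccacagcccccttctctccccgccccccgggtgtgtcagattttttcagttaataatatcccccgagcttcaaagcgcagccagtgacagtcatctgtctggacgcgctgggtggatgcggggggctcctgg
A match is a description of the letters and not a binding site shown in these lungs.

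Mxd4, which encodes an MXD repressor, was the member that differed most. It had 11.3 RPKM in DKO 1 and 6.27 RPKM in DKO 2, against 0.122 RPKM in WT (NM_010753, chromosome 5, 34176580 to 34187710 on GRCm38). Both DKO libraries lay far above WT. These values stand for about 1346, 831 and 23 reads in DKO 1, DKO 2 and WT. After allowing for depth, Mxd4 was 92.8-fold higher than WT in DKO 1 (95% exact interval 61.6 to 147) and 51.4-fold higher in DKO 2 (34.1 to 81.6). Both intervals rest on approximate reads and cover counting error alone. In DKO libraries Mxd4 averaged 8.80 ± 3.58 RPKM (SD, n = 2).

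On the log2(RPKM + 1) scale Mxd4 was 3.46 above WT in DKO 1 and 2.70 above WT in DKO 2, a mean of 3.08. The gap of 0.76 between the DKO libraries was smaller than either difference, and the median gap between them over all transcripts was 0.58. Among the 2066 transcripts that averaged 1 RPKM or more, Mxd4 ranked 7 by the smaller of its differences above WT and 11 by the mean difference. This contrast chose Mxd4 and its DKO levels carried it past the 1 RPKM filter, so nothing is read from these ranks. No other annotated gene overlaps Mxd4 in the RefSeq gene table. Of its neighbours within 100 kb, those with a row were Poln, listed at 0 in every library, and Zfyve28, with 0.0737 RPKM in DKO 1 and listed at 0 in DKO 2 and WT.

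Mxd1, the other MXD repressor with a readable level, lay on the opposite side of WT. It had 0.0909 RPKM in DKO 1 and 0.132 RPKM in DKO 2, against 0.383 RPKM in WT, or about 13, 21 and 87 reads. Both DKO libraries were thus lower than WT, at a level where Mxd1 did not reach the minimum of 1 RPKM. The ratio to WT was 0.237 in DKO 1 (95% exact interval 0.121 to 0.427) and 0.344 in DKO 2 (0.203 to 0.559). The intervals of the DKO libraries overlap each other and lie wholly below WT. Mxi1, the third MXD gene with rows, had 3 of them, at 0.0190 RPKM for 1 transcript in DKO 1 and 0.00411 RPKM for another in WT, and was otherwise listed at 0, so its level could not be read.

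Mnt, a MAX partner that represses and is found in most cells, was slightly above WT in both DKO libraries. It had 0.647 RPKM in DKO 1 and 0.625 RPKM in DKO 2, against 0.390 RPKM in WT, or about 91, 98 and 87 reads. The ratio to WT was 1.66 in DKO 1 (95% exact interval 1.22 to 2.25) and 1.60 in DKO 2 (1.19 to 2.17). The difference of 0.24 on the log2 scale was small, and with quantile normalization the difference was −0.03 in DKO 1 and 0.26 in DKO 2, on either side of WT. The DKO libraries were the closest to each other for this gene among the members with more than 3 reads in every library, 0.02 apart.

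Mycn, the MYC gene of the embryonic lung epithelium, was the highest member in WT. It had 4.51 RPKM in DKO 1 and 2.14 RPKM in DKO 2, against 4.14 RPKM in WT, or about 370, 196 and 539 reads. DKO 1 was at the level of WT, with a ratio of 1.09 (95% exact interval 0.951 to 1.25), and DKO 2 was lower, with a ratio of 0.518 (0.437 to 0.611). On the log2 scale DKO 1 was 0.10 above WT, which is within counting error, and DKO 2 was 0.71 below it.

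Mycl, a MYC gene with a narrower range of tissues, followed the same order. It had 1.04 RPKM in DKO 1 and 0.435 RPKM in DKO 2, against 0.752 RPKM in WT, or about 112, 52 and 128 reads. DKO 1 had a ratio to WT of 1.39 (95% exact interval 1.07 to 1.80), and DKO 2 of 0.578 (0.411 to 0.804). For Mycn and Mycl alike, DKO 1 was the highest library and DKO 2 the lowest, though for Mycn DKO 1 and WT do not differ beyond counting error.

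**Figure D1:**
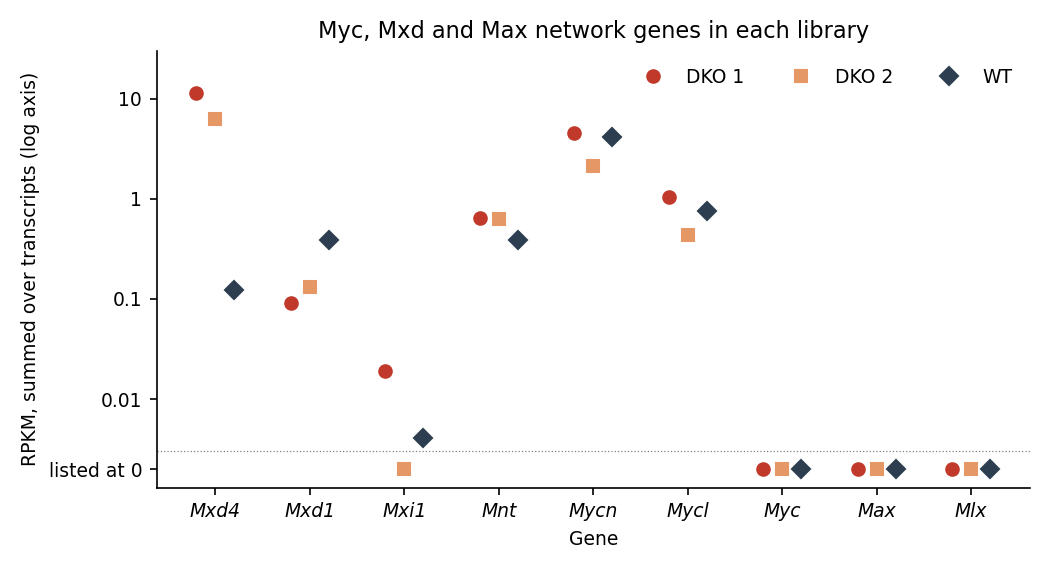
RPKM of each network gene on a log axis, summed over its transcripts, with 1 point for each of DKO 1, DKO 2 and WT; points under the dotted line are listed at 0. Mxd4 stands at 11.3 and 6.27 RPKM in the DKO libraries and 0.122 in WT, Mxd1 is below WT in both DKO libraries, and Myc, Max and Mlx are listed at 0 throughout.

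Myc, Max and Mlx could not be read from this table. All 4 rows of Myc, both of Max and all 3 of Mlx were listed at 0 in every library, so that 10 of the network's 17 rows were at 0. The genes with a readable level, Mxd4, Mxd1, Mnt, Mycn and Mycl, have 1 or 2 RefSeq coding transcripts each. Mlx has 3, Myc and Max 4 each and Mxi1 7. For genes with 1 such transcript 47.6% of all rows were listed at 0, and the share was 69.4% for 2, 79.0% for 3 and 87.0% for 4 or more. Gapdh, which nearly every cell uses, had 0.115 RPKM in DKO 1, 0.185 in DKO 2 and 0.0144 in WT. A listing at 0 of Myc, Max or Mlx therefore does not show that the gene was silent.

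The order of the members' levels differed between the single WT library and the DKO libraries. In DKO 1 the order was Mxd4, Mycn, Mycl, Mnt and Mxd1, from 11.3 to 0.0909 RPKM. In DKO 2 Mnt stood above Mycl and the order was otherwise the same, from 6.27 to 0.132 RPKM. In WT it was Mycn, Mycl, Mnt, Mxd1 and Mxd4, from 4.14 to 0.122 RPKM, where Mnt and Mxd1, with about 87 reads each, are neighbours that do not differ beyond counting error. Mxd4 was thus the highest member in both DKO libraries and the lowest of these 5 in WT.

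Summed over their rows, the MXD genes had 11.4 RPKM in DKO 1 and 6.41 RPKM in DKO 2, against 0.509 RPKM in WT. Without Mxd4 the sums were 0.110 and 0.132 RPKM in DKO 1 and DKO 2, against 0.387 RPKM in WT, so the higher MXD sum came from Mxd4. The MYC genes summed to 5.55 RPKM in DKO 1 and 2.57 RPKM in DKO 2, against 4.89 RPKM in WT. The MXD sum was 2.06 times the MYC sum in DKO 1 and 2.49 times in DKO 2, against 0.104 times in WT. Myc itself, listed at 0, adds nothing to these sums. Mxd3 had no row and Mxi1 could not be read, so the MXD sum without Mxd4 is mostly Mxd1. The sums describe RNA of the whole lung and not proteins.

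**Figure D2:**
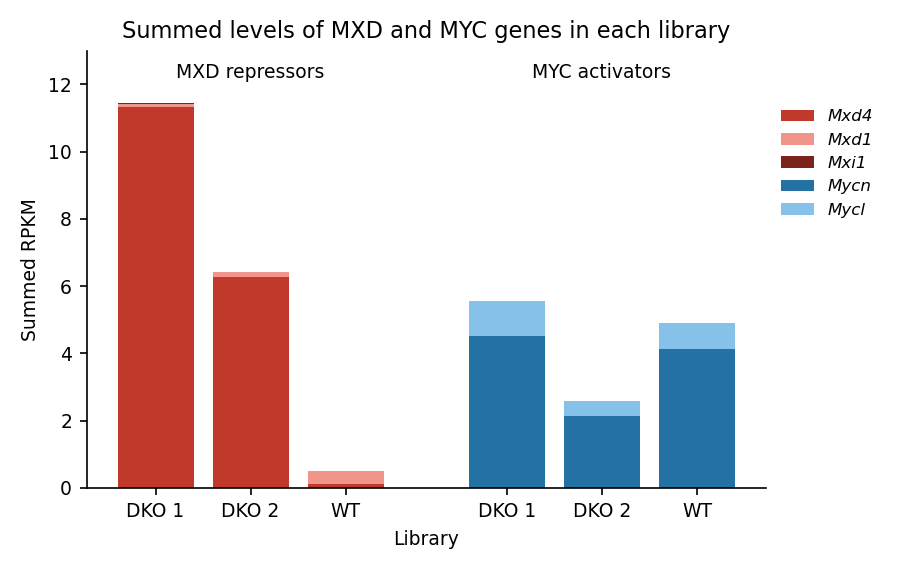
Summed RPKM of the MXD genes (left) and MYC genes (right) with 1 bar for each of DKO 1, DKO 2 and WT, divided by gene. Mxd4 makes up most of the MXD bar in both DKO libraries, and the MYC bar is lowest in DKO 2, at 2.57 RPKM.

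Of the members, Mxd4 and Mycn reached a mean of 1 RPKM and entered the fit over all 2066 transcripts. In limma with Benjamini-Hochberg adjustment at 0.05, 0 of these 2 members passed. Of all transcripts, 0.0968% did, 0.0484% higher and 0.0484% lower in DKO libraries. Of the 2 members, 1 had an unadjusted p under 0.05, as 66 of all 2066 transcripts did. Mxd4 met a rule of size, under which each DKO library had to differ from WT by 2-fold or more to one side and lie nearer to the other DKO library than to WT. Of all transcripts, 3.19% met it with higher values in the DKO libraries and 1.5% with lower ones. Since this contrast chose Mxd4, nothing is read from these counts.

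The transcripts whose pair of differences lay closest to that of Mxd4 were Cd52, Lgals7, Tspo, Eif2s3y and Cyba, by Euclidean distance over DKO 1 and DKO 2. Cd52, a surface glycoprotein of leukocytes, was the nearest, at a distance of 0.20. It had 39.1 RPKM in DKO 1 and 27.1 in DKO 2, against 2.82 in WT. Lgals7, a galectin of stratified epithelia, followed at 0.21, with 33.9 and 20.4 RPKM in DKO 1 and DKO 2, against 2.58 in WT. Tspo, a protein of the outer mitochondrial membrane, had 36.7 and 24.0 RPKM, against 3.45 in WT (distance 0.43). Eif2s3y, a Y-linked translation initiation factor gene, had 15.0 and 5.07 RPKM and was listed at 0 in WT (distance 0.55). Cyba, a subunit of the NADPH oxidase of phagocytes, had 146.6 and 70.5 RPKM, against 14.6 in WT (distance 0.55). All 5 were higher in DKO 1 than in DKO 2, as Mxd4 was. With 3 libraries such likeness is weak, and these genes were chosen by it.

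**Figure D3:**
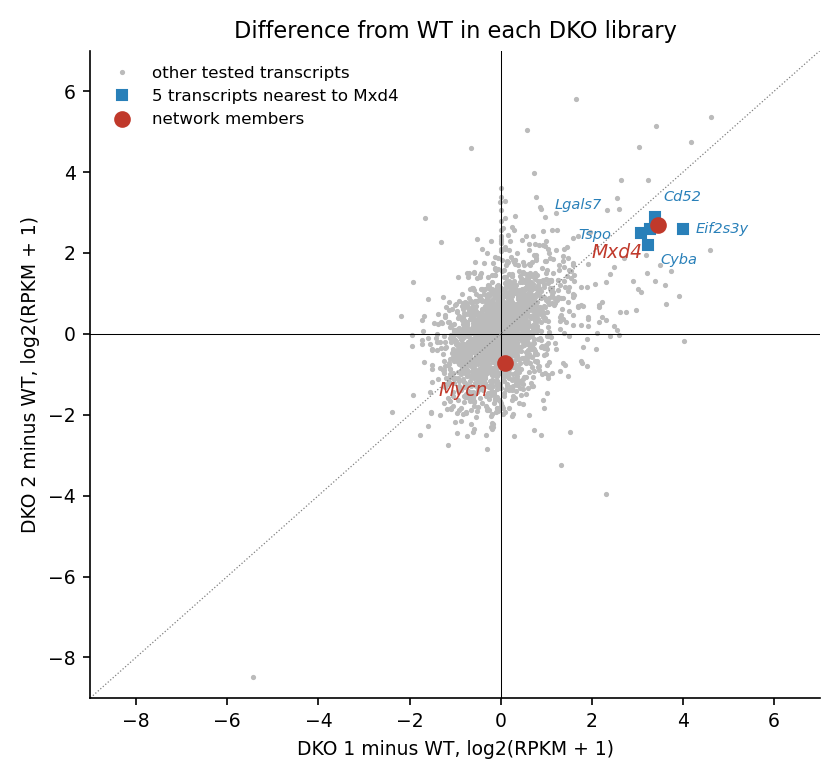
Difference from WT on log2(RPKM + 1) in DKO 1 (horizontal) and DKO 2 (vertical) for the 2066 transcripts tested, with the 2 network members among them and the 5 transcripts nearest to Mxd4. Mxd4 lies at 3.46 and 2.70, apart from the bulk, and Mycn at 0.10 and −0.71, within it; the dotted line marks equal differences.

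The summed levels of Y-linked, macrophage and neutrophil markers lay on the same side of WT as Mxd4, though not every gene did. The erythroid, liver and endothelial sums given below also lay above WT in both DKO libraries. The 4 Y-linked genes summed to 22.3 RPKM in DKO 1 and 8.11 in DKO 2, against 0 in WT, with each of them listed at 0 in WT. Sex and genotype therefore cannot be told apart in these libraries. Of 12 macrophage genes, 10 had a row, 3 of these (Ptprc, Cd68 and Ctss) were listed at 0, and 4 of 6 tested transcripts were above WT in both DKO libraries, as 32.1% of all transcripts were. C1qc, a complement gene of macrophages, had 25.1 RPKM in DKO 1 and 0.111 in DKO 2, against 9.43 in WT, and Csf1r and Fcer1g were likewise above WT in DKO 1 and below it in DKO 2. The summed macrophage level was 395.5 RPKM in DKO 1 and 121.6 in DKO 2, against 81.2 in WT, and without Tyrobp 177 and 69.3 RPKM in DKO 1 and DKO 2, against 56.3 in WT. Of 10 neutrophil genes, 9 had a row and 3 of these (Elane, Ngp and S100a9) were listed at 0. Of 3 tested neutrophil transcripts, 2 were above WT in both DKO libraries (32.1% of all transcripts were). The neutrophil sum was 79.8 RPKM in DKO 1 and 128.8 in DKO 2, against 3.20 in WT, most of it S100a8, and without that gene 7.601 and 21.1 RPKM in DKO 1 and DKO 2, against 0.159 in WT. Lcn2 was listed at 0 in DKO 1, and Prtn3 was at the WT level in DKO 2. The part of these cells or of sex in the level of Mxd4 was not tested.

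Summed markers of other tissues stood highest in DKO 2, the library where Mycn and Mycl were lowest, though not every gene did. The erythroid genes, 11 with a row and 2 of them (Alas2 and Hba-a1) listed at 0, summed to 28715 RPKM in DKO 1 and 102775 in DKO 2, against 20202 in WT. The liver genes, 9 with a row and 2 of them (Ahsg and Serpina1a) listed at 0, summed to 11.4 RPKM in DKO 1 and 183 in DKO 2, against 7.55 in WT. The heart genes, 7 with a row and 3 of them (Myh6, Nppa and Tnnt2) listed at 0, summed to 13.7 RPKM in DKO 1 and 81.9 in DKO 2, against 21.1 in WT. The part of these tissues in the Mycn and Mycl levels was not tested.

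The epithelial RNA of the libraries was described with 14 epithelial genes, of which 12 had a row. Epcam, an epithelial adhesion protein, had 6.75 RPKM in DKO 1 and 10.6 in DKO 2, against 17.4 in WT. Nkx2-1, which marks lung epithelium, was listed at 0 in every library. As for Myc, Max and Mlx, this listing does not show that the gene was silent. Krt19, an epithelial keratin, lay on the other side, with 6.17 RPKM in DKO 1 and 9.11 in DKO 2, against 3.08 in WT. Sftpc, the surfactant protein C gene, had 7.55 RPKM in DKO 1 and 0.0364 in DKO 2, against 369 in WT. It passed limma (adjusted p = 0.0199) against the single WT library, but not with no filter, quantile normalization, TPM or robust moderation (adjusted p = 0.232 to 0.997), and the other settings gave 1.07e-20 to 0.0378. The epithelial genes summed to 114.9 RPKM in DKO 1 and 66.9 in DKO 2, against 490 in WT, and without Sftpc to 107 and 66.9 RPKM in DKO 1 and DKO 2, against 121 in WT. Id2 was the largest part of the sums without Sftpc, with 83.5 RPKM in DKO 1 and 29.2 in DKO 2, against 76.7 in WT. Of the epithelial genes, 6 of 9 tested transcripts were below WT in both DKO libraries (31% of all transcripts were). In whole lung, fewer cells of a type and less RNA per cell cannot be told apart. Whether the share of epithelium entered the values of Mycn and Mycl was not tested. Mesenchymal genes summed to 116 RPKM in DKO 1 and 91.8 in DKO 2, against 107 in WT, and endothelial genes to 11.4 and 14.3 RPKM in DKO 1 and DKO 2, against 10.4 in WT.

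The genes around the network were taken from 8 lists of 135 genes. Of these, 63 transcripts were tested, and 0 passed limma (lowest adjusted p = 0.999), so none of the differences that follow passed the test. An unadjusted p under 0.05 was found for 0 of the 63, and for 66 of all 2066 transcripts. Zbtb17, which encodes MIZ1, a partner through which MYC represses, was the tested gene among 6 other network genes. It had 2.62 RPKM in DKO 1 and 2.78 in DKO 2, against 1.24 in WT.

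The Sin3 corepressor, through which MXD proteins act, had 6 tested transcripts with a median difference of 0.05, against −0.01 over all transcripts. The list median was −0.02 with median scaling, −0.04 with quantile normalization or no filter and −0.18 with TPM. The median of all tested transcripts was −0.06 with median scaling or quantile normalization and −0.22 with TPM. Of these 6, 2 were above WT in both DKO libraries and 1 below (32.1% and 31% of all transcripts were). Hdac1, a histone deacetylase, had 18.1 RPKM in DKO 1 and 23.3 in DKO 2, against 8.57 in WT. Sap18, a small subunit of the complex, had 37.6 and 34.0 RPKM in DKO 1 and DKO 2, against 22.7 in WT. Rbbp4, a histone-binding subunit, had 18.1 and 23.03 RPKM, against 23.06 in WT, so DKO 2 was at the WT level. Of the coactivators that MYC recruits, 2 were tested. Ruvbl2, an ATPase of chromatin complexes, had 10.1 and 12.4 RPKM in DKO 1 and DKO 2, against 7.95 in WT, and Crebbp, an acetyltransferase, had 1.81 and 0.748 RPKM, against 2.18 in WT.

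The MYC-activated target list, genes of ribosome building, metabolism and cell division, held 49 genes, of which 38 had a row, 7 were listed at 0 and 27 were tested. Of the 27, 15 lay below WT in both DKO libraries and 6 above, or 55.6% and 22.2%, where 31% and 32.1% of all transcripts did. The median difference was −0.27, with −0.44 for DKO 1 alone and −0.02 for DKO 2 alone. The share below WT was 77.8% in DKO 1, against 50.4% of all transcripts, and 55.6% in DKO 2, against 47.9%. The lower median thus came mostly from DKO 1, and any relation to the level of Mxd4 or Mycn was not tested.

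Ncl, the nucleolar protein nucleolin, had 24.7 RPKM in DKO 1 and 13.95 in DKO 2, against 43.5 in WT. Slc16a1, a lactate transporter, had 2.91 and 1.37 RPKM in DKO 1 and DKO 2, against 5.85 in WT. Hspe1, a mitochondrial chaperone, had 3986 and 4174 RPKM, against 5527 in WT. Each of the 3 was lower than WT in both DKO libraries without passing limma. Cdk4, a kinase of the start of the cell cycle, lay on the other side, with 169 RPKM in DKO 1 and 222 in DKO 2, against 121 in WT.

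Of 5 tested genes that MYC is known to repress, 3 were above WT in both DKO libraries and 1 below, with a median difference of 0.27 (32.1% and 31% of all transcripts were). With median scaling, quantile normalization or TPM, 1 was above and 1 below. Of all transcripts, these settings put 29.7%, 28.7% and 25% above and 34.8%, 34.5% and 41.1% below, in that order. The TPM median was 0.08, against −0.22 over all tested transcripts. Gadd45a, a growth arrest gene induced by DNA damage, had 2.58 RPKM in DKO 1 and 0.263 in DKO 2, against 4.25 in WT. Ndrg1, a gene of stress and differentiation, had 0.981 and 2.49 RPKM in DKO 1 and DKO 2, against 0.583 in WT. The collagen genes Col1a1 and Col1a2 were above WT in DKO 1, by 0.53 and 0.50 on the log2 scale, and within 0.1 of it in DKO 2.

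Cell cycle genes were compared because MXD genes are known to be used as cells stop dividing. Of 14 tested proliferation genes, 5 were below WT in both DKO libraries and 4 above (31% and 32.1% of all transcripts were), and the median difference was −0.07, at −0.17 in DKO 1 and 0.14 in DKO 2. With quantile normalization 8 were below and 4 above (34.5% and 28.7% of all transcripts were). The list median was then −0.17, against −0.06 over all tested transcripts. With TPM 8 were below and 3 above (41.1% and 25% of all transcripts were), and the list median was −0.30, against −0.22 over all tested transcripts. Mki67, a marker of dividing cells, had 7.87 RPKM in DKO 1 and 5.32 in DKO 2, against 14.3 in WT. Aurkb, a mitotic kinase, had 6.40 and 5.93 RPKM in DKO 1 and DKO 2, against 9.15 in WT. Plk1, a mitotic kinase that also acts on MYC protein stability, lay on the other side, with 2.06 and 4.37 RPKM in DKO 1 and DKO 2, against 1.08 in WT, as did Mcm2, a subunit of the replicative helicase, with 8.23 and 8.65 RPKM, against 5.95 in WT.

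Of 9 tested genes of cell cycle exit, 4 were above WT in both DKO libraries and 1 below, with a median difference of 0.16 (32.1% and 31% of all transcripts were). The median was 0.04 with quantile normalization and −0.03 with TPM, where the median of all tested transcripts was −0.06 and −0.22. With TPM 2 were above and 2 below (25% and 41.1% of all transcripts were). Gas1, a growth arrest gene that is also a hedgehog co-receptor, had 10.96 RPKM in DKO 1 and 8.58 in DKO 2, against 4.74 in WT. Klf4, a transcription factor of differentiating epithelium, had 0.942 and 1.81 RPKM in DKO 1 and DKO 2, against 0.466 in WT. Ccng1, a cyclin of the p53 response, had 5.67 and 5.94 RPKM, against 5.34 in WT, which is a small difference. Gas2, a cytoskeletal protein of growth arrest, had 4.59 and 0.547 RPKM, against 4.84 in WT, so it was lower mainly in DKO 2.

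**Figure D4:**
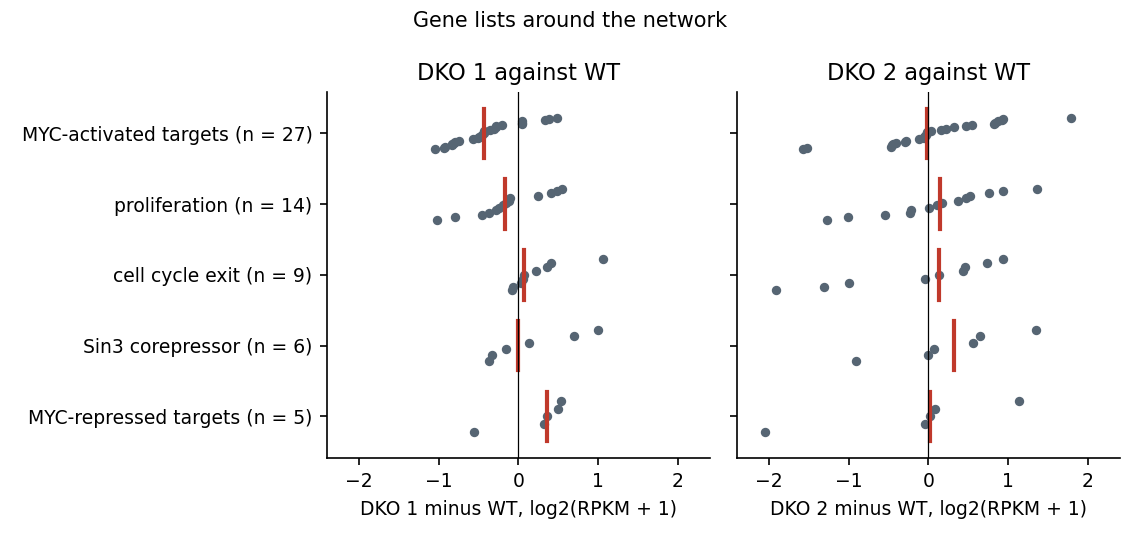
Difference from WT on log2(RPKM + 1) of each tested gene in 5 lists, in DKO 1 (left) and DKO 2 (right); each point is a transcript and the red line is the list's median. The red line of the MYC-activated targets stands at −0.44 for DKO 1 and at −0.02 for DKO 2. Every list, this one included, spreads to both sides of WT.

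Lin28 proteins are known to block maturation of let-7 microRNAs, and MYC genes are among the known let-7 targets, so the members' 3′ UTRs were searched for the site of the let-7 seed. Let-7 members share bases 2 to 8, shown in capitals in a mature sequence from RefSeq (GRCm38.p6).
let-7a-5p: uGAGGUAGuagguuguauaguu
The matching letters CTACCTC were found in the 3′ UTR of Mxd1 alone among the 17 member rows, and in 6.35% of the 16036 rows with a GENCODE transcript. Longer 3′ UTRs hold more matches: rows with a match had a median 3′ UTR of 2129 bases, against 636 over all 16036 rows. The site lies at base 635 of 3829 of the Mxd1 3′ UTR (chr6:86650230-86650236, minus strand, GRCm38) and is printed with its flanks.
Mxd1 site: tctggaacattgtcCTACCTCa
Mxd1 was lower than WT in both DKO libraries, as given above, and any part of this site in that was not tested. Among all tested transcripts, the 137 with this match had a median difference of 0.07 and the others −0.02. The rows of Mycn, Mycl and Mxd4 hold no match to these 7 letters, which says nothing about shorter or imperfect sites.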

How the data were processed

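Total RNA of 3 whole-lung samples was extracted with Trizol and made into libraries with the SMARTer Ultra Low Input kit, per the labels' protocols. The submitters' processing notes name cutadapt, TopHat2, HTSeq and edgeR with build mm10, without versions, annotation or use of strand. RPKM values were deposited by the authors for 16383 RefSeq transcripts in 1 column per library, and 11138 rows hold 0 in all 3. A RefSeq table (GRCm38.p6) and GENCODE M21 names gave 16228 of them a symbol.

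The members and the gene lists were chosen with earlier results of these data known. Reads are approximate: RPKM times GENCODE transcript length was divided by the commonest low product, and 43.9% to 45.7% of values of up to 100 reads lay within 0.05 of a whole read. Ratios of reads, adjusted for depth, have exact Clopper-Pearson 95% intervals for counting error and are given where both libraries exceed 3 reads. Differences used log2(RPKM + 1), which understates changes of low genes. Transcripts averaging 1 RPKM or more over the 3 libraries were fitted with limma 3.58.1 in R 4.3.3 (trended moderation, two-sided, Benjamini-Hochberg adjusted p under 0.05), with 1 residual degree of freedom from the DKO libraries. The lone WT library is taken to vary as they do. Named genes were all members, up to 4 per list, on one side of WT in both DKO libraries and with the largest smaller difference, and the 5 transcripts nearest to Mxd4. Alternatives were other pseudocounts, filters, scalings and moderation, and leaving out each DKO library. Figures used matplotlib 3.10.9.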

Additional observations from a re-analysis of the deposited data

How the results depend on the processing

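No paired analysis was possible because WT has 1 library, so the groups share fewer than 2 replicate numbers. The mean log2 difference of Mxd4, 3.08, was 5.27 with a pseudocount of 0.1, 1.41 with a pseudocount of 5 and 3.93 with rescaling to TPM. Leaving out each DKO library gave 2.70 to 3.46. Mxd4 minus the median of the 8 other members, also 3.08, was 5.27, 1.41 and 3.93 under the same settings, and 2.70 to 3.44 without each DKO library. Since Myc, Max and Mlx enter it as 0, this value mostly repeats Mxd4's own difference, and the median of the 4 other readable members was −0.17. Mxd4 was above WT in both DKO libraries under every pseudocount, filter and scaling tried, while Mycn and Mycl lay on either side and Mxd1 below. Mnt was above WT in both except with quantile normalization.

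The count of transcripts passing limma, 2, was 13 with a pseudocount of 0.1, 1 with a pseudocount of 5, 0 with no filter (260 with an unadjusted p under 0.05), 10 with a filter at 5 RPKM, 14 with median scaling 0 with quantile normalization (45 unadjusted) and 0 with TPM (38 unadjusted). Without either DKO library limma has no residual degrees of freedom and was not run. With robust moderation 2 passed, both higher. Mxd4 was among those passing with a pseudocount of 0.1 and with median scaling, but this contrast chose Mxd4 and its DKO levels carried it past the filter, so nothing is read from this. The count past the 2-fold rule, 97 (66 higher and 31 lower), was 166 with a pseudocount of 0.1, 34 with a pseudocount of 5 and 50 with a filter at 5 RPKM, and 280 to 555 when either DKO library stood alone. With TPM the split was 71 higher and 67 lower, and TPM moved the median of all tested transcripts by −0.21. The MYC-activated target median, −0.27, was −0.51 with TPM and ran from −0.44 to −0.02 without each DKO library. The 15 such targets below WT in both were 15 with DKO 2 alone and 21 with DKO 1 alone, an alternative chosen after seeing the data. The causes were not tested. With 1 WT library and 2 DKO libraries, differences of a few-fold at low levels could not be told from spread between libraries.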
